A study of Mus musculus with 2 samples.

Results

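The genes described here are 2 glucose transporters (Slc2a1 and Slc2a3) and 8 enzymes of glycolysis (Hk2, Aldoa, Gapdh, Tpi1, Pgk1, Eno1, Pkm and Ldha), 10 of the 20282 genes in a matrix of single thymocytes. They were chosen by name, with earlier results of these data known. All 10 were in the matrix, and their levels were read per deposited cluster of cells and per library. Whole thymus of 6-week-old littermate mice was profiled, with the cells of 5 Cdc42f/f mice pooled into 1 library (WT) and those of 5 Cdc42f/f CD4Cre mice pooled into another (KO). Both groups carry loxP-flanked Cdc42 alleles. In the KO group Cre is driven by the CD4 promoter, so that exon 2 of Cdc42 is removed from the DP (CD4+CD8+) stage onward, while thymocytes that have not yet reached that stage, and cells outside the T lineage, keep the gene intact. A level is given as UMIs (unique molecular identifiers, one per captured transcript) per 1000000 UMIs of the same cells (CPM). These are 3′ counts, which do not depend on transcript length.

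Glycolysis converts glucose to pyruvate in the cytosol. Slc2a1 (GLUT1) and Slc2a3 (GLUT3) carry glucose into the cell, hexokinase traps it as glucose 6-phosphate, aldolase splits the 6-carbon sugar, triose phosphate isomerase interconverts the products, and Gapdh, Pgk1, enolase and pyruvate kinase carry the triose to pyruvate with a net gain of ATP. Lactate dehydrogenase then reduces pyruvate to lactate and regenerates NAD+. It is a tetramer of A subunits (Ldha), B subunits (Ldhb) or both, and the A subunit favours lactate formation. In the thymus, pre-TCR signalling drives DN (CD4-CD8-) cells into a burst of growth and division, DP cells then leave the cycle, and positively selected cells become CD4+ or CD8+ SP (single-positive) cells. HIF-1 and MYC are transcription factors known to act on many of these genes, and both bind DNA through short motifs that share the core letters ACGTG.

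The promoters of Ldha and Ldhb are printed because the balance of these 2 genes followed the stages of thymocyte development in both libraries. They are the 250 bases before each annotated start in RefSeq (GRCm38.p6), 5′ to 3′ on the strand of the gene, with ACGTG or GCGTG on either strand in capitals (CACGT and CACGC are their reverse complements).
Ldha, chr7:46845554-46845803, plus strand: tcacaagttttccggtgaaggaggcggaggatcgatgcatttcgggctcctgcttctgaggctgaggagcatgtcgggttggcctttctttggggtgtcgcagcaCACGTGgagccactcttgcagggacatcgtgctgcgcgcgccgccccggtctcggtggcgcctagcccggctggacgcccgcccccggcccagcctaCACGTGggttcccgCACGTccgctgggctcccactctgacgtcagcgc
Ldha, chr7:46846832-46847081, plus strand: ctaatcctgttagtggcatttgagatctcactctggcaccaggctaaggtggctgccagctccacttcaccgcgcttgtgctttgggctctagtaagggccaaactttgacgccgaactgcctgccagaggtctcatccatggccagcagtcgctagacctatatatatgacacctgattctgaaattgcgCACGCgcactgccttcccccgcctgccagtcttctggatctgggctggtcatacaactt
Ldhb, chr6:142507958-142508207, minus strand: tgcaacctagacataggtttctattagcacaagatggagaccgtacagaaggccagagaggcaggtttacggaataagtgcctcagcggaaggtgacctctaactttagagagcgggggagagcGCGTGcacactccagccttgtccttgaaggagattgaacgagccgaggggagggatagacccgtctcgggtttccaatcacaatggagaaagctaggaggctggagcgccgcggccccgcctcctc
The first Ldha window held CACGTG, the symmetric E-box, at 2 places and 5 matches to ACGTG in all when both strands were counted, since each CACGTG counts on both. The second held 1 GCGTG, and the Ldhb window held 1 GCGTG. Both Ldha windows lie within the span of a longer Ldha transcript of GENCODE and overlap none of its exons. The bases just after the first Ldha window were found in no Ldha transcript of GENCODE. Those after the second Ldha window and after the Ldhb window were found in transcripts of their gene. Of the members, 9 of 10 had an entry in the promoter table, Slc2a3 being the one not matched. Of these 9 genes, 8 had a window with ACGTG or GCGTG. Their 15 windows overlap in part for Aldoa and Eno1, and 12 of the 15 held ACGTG or GCGTG. Among all 32851 windows of the same length, 38.6% held one of these, 16.6% held ACGTG, 28.2% GCGTG and 6.02% CACGTG. The members' windows had a median GC content of 66.4% against 52.4% for all windows, and Ldha was the one member with CACGTG. A match is a run of letters and was not shown here to be a bound site.

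The genes lie on chromosomes 4 (Slc2a1, 119108711-119137983, and Eno1, 150236721-150248879), 6 (Slc2a3, 122727809-122801640, Hk2, 82725025-82774454, Gapdh, 125161715-125166467, and Tpi1, 124810586-124814296), 7 (Aldoa, 126795234-126800751, and Ldha, 46841475-46855627), 9 (Pkm, 59656368-59679375) and X (Pgk1, 106187100-106203699) of GRCm38. Some of their 3′ ends are shared with other genes. Of the 91-base stretches in the last 500 bases of Gapdh, 79.5% also occur in at least 1 of 65 other annotated genes, among them the pseudogene Gapdh-ps15. For Eno1 the share was 52.7%, with Eno1b and Gm4735 as the partners, so that Gapdh and Eno1 counts could have lost or gained reads to copies. For the other 8 members it was 0%. GENCODE also gives the name Aldoa to another protein-coding gene, at 126800790-126809108 on chromosome 7. Sharing between entries of the same name was not counted, and which of them the Aldoa counts cover is not known here.

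The 2 libraries held 13683 cells, 6115 in the WT library with 29706197 UMIs (median 3192 per cell) and 7568 in the KO library with 37920214 UMIs (median 3401), and 17 cell barcodes occurred in both. With 1 library per condition no difference between WT and KO has a replicate check, cells are not replicates, and the intervals given are exact 95% intervals that cover counting error only. The 19 deposited clusters were grouped by their leading markers. Clusters 0 to 4 had the highest Rag1 levels and are called resting DP (3636 WT and 4641 KO cells), clusters 5 and 9 had the highest Cd5 levels and are called signalled DP (535 and 843), and cluster 6 led for Itm2a (479 and 316) and cluster 7 for Ms4a4b (332 and 396), both SP markers. Clusters 10 to 13 are the cycling cells (686 and 737). Cluster 14 (54 and 99), led by Myl10 and Il2ra, had the highest sum of DN or gamma-delta T cell markers. That list does not separate DN from gamma-delta cells. The marker lists went with these names, with summed DP markers at 10751 and 10788 CPM in resting DP of the WT and KO libraries, SP markers at 8753 and 9463 CPM in the Ms4a4b cluster, and cycling markers at 15740 and 15084 CPM in the cycling clusters. Cdc42 itself had 447 CPM in the WT and 581 CPM in the KO library in the Ms4a4b cluster, and 358 and 320 CPM in resting DP. A 3′ count does not read exon 2, so this does not check the labels, and the libraries are named here as labelled.

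The 10 genes together took 1457 CPM in resting DP of the WT library and 1477 CPM in the KO library, the lowest sums outside the Lars2 cluster (cluster 8, cells of few UMIs and a high mitochondrial share, with 618 and 766 CPM). In signalled DP the sum was 2547 and 2549 CPM, in the Itm2a cluster 2842 and 3039 CPM, in the Ms4a4b cluster 1984 and 2091 CPM, and in the cycling clusters 3462 and 3362 CPM. Both libraries therefore gave the same order of these groups, with resting DP below the 2 SP clusters, signalled DP and the cycling cells. Per cell the contrast was wider, since cycling cells also held more RNA: 4.35 and 4.89 UMIs of the 10 genes per resting DP cell against 50.5 and 58.1 per cycling cell. The make-up of the sum also differed, for Gapdh gave 51.8% and 51.6% of these UMIs in resting DP, 59.0% and 57.3% in the cycling cells, and 36.2% and 34.0% in the Ms4a4b cluster. Without Gapdh the order of the groups changed. The Itm2a cluster (1750 and 1847 CPM) then stood above the cycling clusters (1418 and 1437 CPM). The Ms4a4b cluster (1266 and 1380 CPM) stood above signalled DP (1222 and 1196 CPM), and resting DP stayed lowest of these groups (702 and 715 CPM).

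**Figure D1:**
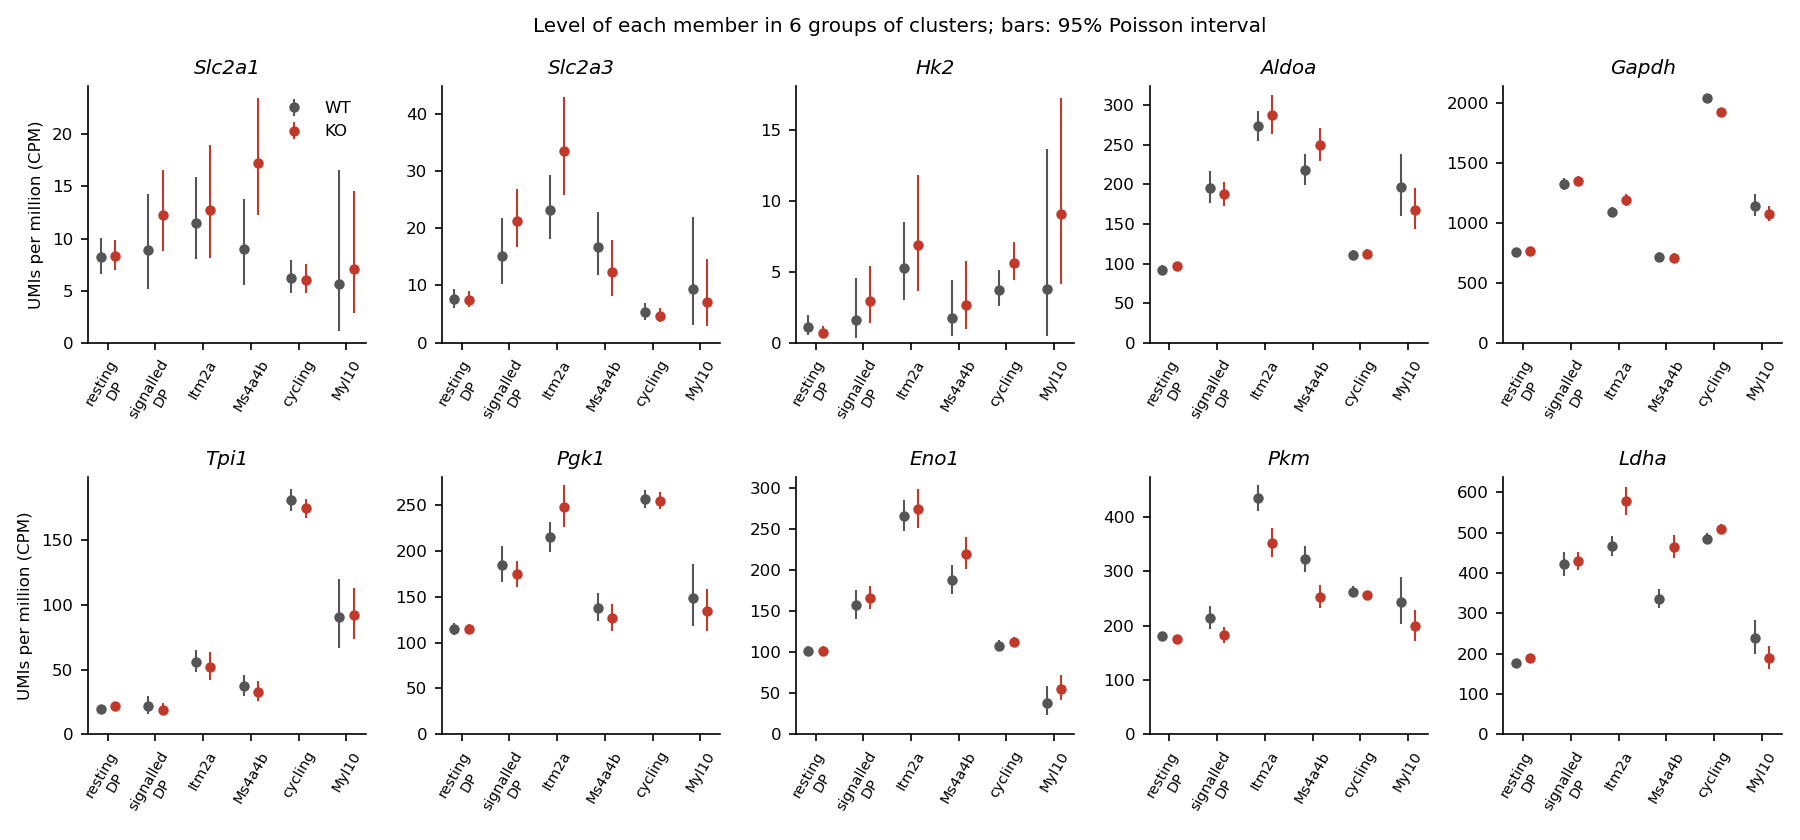
Each panel plots 1 gene, with its level in CPM on the y axis from 0 and 6 groups of clusters on the x axis, for the WT (grey) and KO (red) library; bars are exact 95% Poisson intervals. Tpi1 and Gapdh were highest in the cycling clusters (181 and 2044 CPM in WT), Eno1, Pkm, Aldoa and Slc2a3 in the Itm2a cluster (266, 434, 273 and 23.3 CPM in WT), and Ldha was high in both.

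The glucose transporters were scarce. Among the 6 groups, Slc2a3 was highest in the Itm2a cluster in both libraries, as were Aldoa, Eno1 and Pkm. Slc2a1, the ubiquitous basal transporter, had 8.19 CPM in resting DP of the WT library (interval 6.6 to 10.1, 89 UMIs) and 8.33 CPM in the KO library, and stayed between 5.66 and 17.2 CPM in the 6 groups of both libraries. Slc2a3, the high-affinity transporter, had 7.64 and 7.48 CPM in resting DP, 15.2 and 21.3 CPM in signalled DP, and 23.3 and 33.5 CPM in the Itm2a cluster. Its level was thus highest in the Itm2a cluster in both libraries, where its log2 ratio over resting DP was 1.61 (interval 1.13 to 2.08) in WT and 2.17 (1.69 to 2.62) in KO. In the Ms4a4b cluster it was 16.7 and 12.4 CPM, and in the cycling clusters 5.30 and 4.71 CPM, below resting DP in both libraries with log2 ratios of -0.52 (-1.05 to -0.01) and -0.66 (-1.14 to -0.21). Cycling cells thus had the highest sum over the 10 genes, though not without Gapdh, and the lowest Slc2a3 level of these groups. Of the UMIs of both transporters, Slc2a1 held 51.7% (44.0 to 59.4) in resting DP and 33.0% (24.2 to 42.8) in the Itm2a cluster of the WT library, and 52.7% (46.2 to 59.1) and 27.6% (18.5 to 38.2) in the KO library.

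Hk2, the inducible hexokinase, was at the edge of detection. It had 12 UMIs in all resting DP cells of the WT library (1.10 CPM) and 10 UMIs in those of the KO library (0.65 CPM). In the cycling clusters it had 37 UMIs (3.70 CPM) and 72 UMIs (5.65 CPM), a log2 ratio over resting DP of 1.71 (0.77 to 2.82) in WT and 3.06 (2.16 to 4.24) in KO. Within the cycling cells these UMIs came almost wholly from clusters 11 and 12, for cluster 10 had 1 UMI in each library. In the Itm2a cluster it had 16 UMIs (5.24 CPM) and 13 UMIs (6.91 CPM), so that the intervals of the Itm2a and cycling groups overlapped. Hk1, the constitutive hexokinase, had 37.4 and 40.8 CPM in resting DP and 27.4 and 24.1 CPM in the cycling clusters. Hk2 therefore made up 2.87% (1.49 to 4.96) of Hk1 and Hk2 UMIs in resting DP of the WT library and 11.9% (8.52 to 16.0) in its cycling clusters, and 1.57% (0.755 to 2.87) and 19% (15.2 to 23.3) in the KO library. Its highest levels rested on few UMIs and lay outside these groups, in the Cd74 cluster (31.8 and 16.2 CPM on 7 and 8 UMIs), the Apoe cluster (23.7 and 84.2 CPM on 1 and 6 UMIs) and, in KO, the Lars2 cluster (17.6 CPM on 9 UMIs) and small cluster 17 (23.7 CPM on 1 UMI).

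Aldoa, the aldolase of most tissues, had 92.4 and 97.2 CPM in resting DP, 195 and 187 CPM in signalled DP, 273 and 287 CPM in the Itm2a cluster and 218 and 250 CPM in the Ms4a4b cluster. It separated the selected cells from the cycling cells, where it had 110 and 112 CPM, close to resting DP, with log2 ratios of 0.25 (0.13 to 0.38) and 0.21 (0.10 to 0.32). That small excess turned negative when cells were weighted equally (-0.07 in WT and -0.11 in KO) and when the 5% of cells with most UMIs were left out (-0.49 and -0.60). Eno1, enolase 1, was likewise highest in the Itm2a cluster and near resting DP in the cycling clusters. It had 102 CPM in resting DP of both libraries, 266 and 274 CPM in the Itm2a cluster, 188 and 220 CPM in the Ms4a4b cluster, and 108 and 113 CPM in the cycling clusters. Eno1 was also the one member below resting DP in the Myl10 cluster by more than its interval in both libraries, at 37.7 and 55.5 CPM and log2 ratios of -1.40 (-2.15 to -0.80) and -0.86 (-1.29 to -0.49), while Aldoa was above it there, at 196 and 168 CPM.

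Tpi1, triose phosphate isomerase, was highest in the cycling clusters. It had 19.8 and 21.7 CPM in resting DP and 22.0 and 19 CPM in signalled DP, with intervals that overlapped, 56.0 and 52.1 CPM in the Itm2a cluster and 37.4 and 32.6 CPM in the Ms4a4b cluster. In the cycling clusters it had 181 and 175 CPM, log2 ratios over resting DP of 3.19 (2.99 to 3.41) and 3.00 (2.84 to 3.18). In WT this was the largest ratio of a member in any of these groups. The Myl10 cluster also had a high level, 90.5 and 91.9 CPM, although Mki67, a marker of cycling cells, had 9.43 and 6.06 CPM there against 379 to 1859 CPM in the cycling clusters. Within the cycling cells Tpi1 ran from 63.4 and 44.3 CPM in cluster 13 through 125 and 129 CPM in cluster 10 to 262 and 223 CPM in cluster 12. Among the 16 clusters with at least 200000 UMIs, cluster 12 was its highest in both libraries. In WT the interval of cluster 12 (244 to 281 CPM) did not overlap that of cluster 11, the next in order at 203 CPM, and in KO the 2 intervals overlapped. Over both libraries, Cd74, one of the dendritic cell markers, had 101 CPM in cluster 12. It had 0.877, 1.86 and 12.6 CPM in clusters 10, 11 and 13. The part of this difference in the levels of cluster 12 was not tested.

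Gapdh, the dehydrogenase that yields the first NADH of the pathway, had 755 and 762 CPM in resting DP and 2044 and 1925 CPM in the cycling clusters. It was intermediate in signalled DP (1324 and 1352 CPM) and in the Itm2a cluster (1093 and 1193 CPM). In the Ms4a4b cluster it was back at 719 and 711 CPM, with log2 ratios over resting DP of -0.07 (-0.15 to 0.01) and -0.10 (-0.18 to -0.02), and the KO value changed sign under 2 other library totals. Pgk1, the kinase of the first ATP-yielding step, was likewise highest in the cycling clusters, though by less, with 115 CPM in resting DP of both libraries, 215 and 249 CPM in the Itm2a cluster, 138 and 127 CPM in the Ms4a4b cluster and 257 and 255 CPM in the cycling clusters. In KO the Pgk1 intervals of the cycling and Itm2a clusters overlapped. For both genes signalled DP lay above the Ms4a4b cluster, at 185 and 175 CPM for Pgk1.

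Pkm, pyruvate kinase, had its highest level of the 6 groups in the Itm2a cluster of both libraries. It had 180 and 174 CPM in resting DP, 434 and 352 CPM in the Itm2a cluster, 322 and 253 CPM in the Ms4a4b cluster and 262 and 255 CPM in the cycling clusters. The 3′ counts do not separate its M1 and M2 splice forms. Signalled DP, which stood well above resting DP for Aldoa, Gapdh and Ldha, had 215 and 183 CPM of Pkm, log2 ratios of 0.26 (0.10 to 0.41) and 0.07 (-0.06 to 0.19). Ldha had 176 and 188 CPM in resting DP, 422 and 429 CPM in signalled DP, 466 and 579 CPM in the Itm2a cluster, 335 and 465 CPM in the Ms4a4b cluster and 484 and 510 CPM in the cycling clusters. It was the one enzyme above resting DP by a log2 ratio of at least 0.93 in all 4 of these groups and both libraries. In the Myl10 cluster it had 238 and 189 CPM, and the KO value did not differ from resting DP beyond counting error, with a log2 ratio of 0.01 (-0.22 to 0.22).

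**Figure D2:**
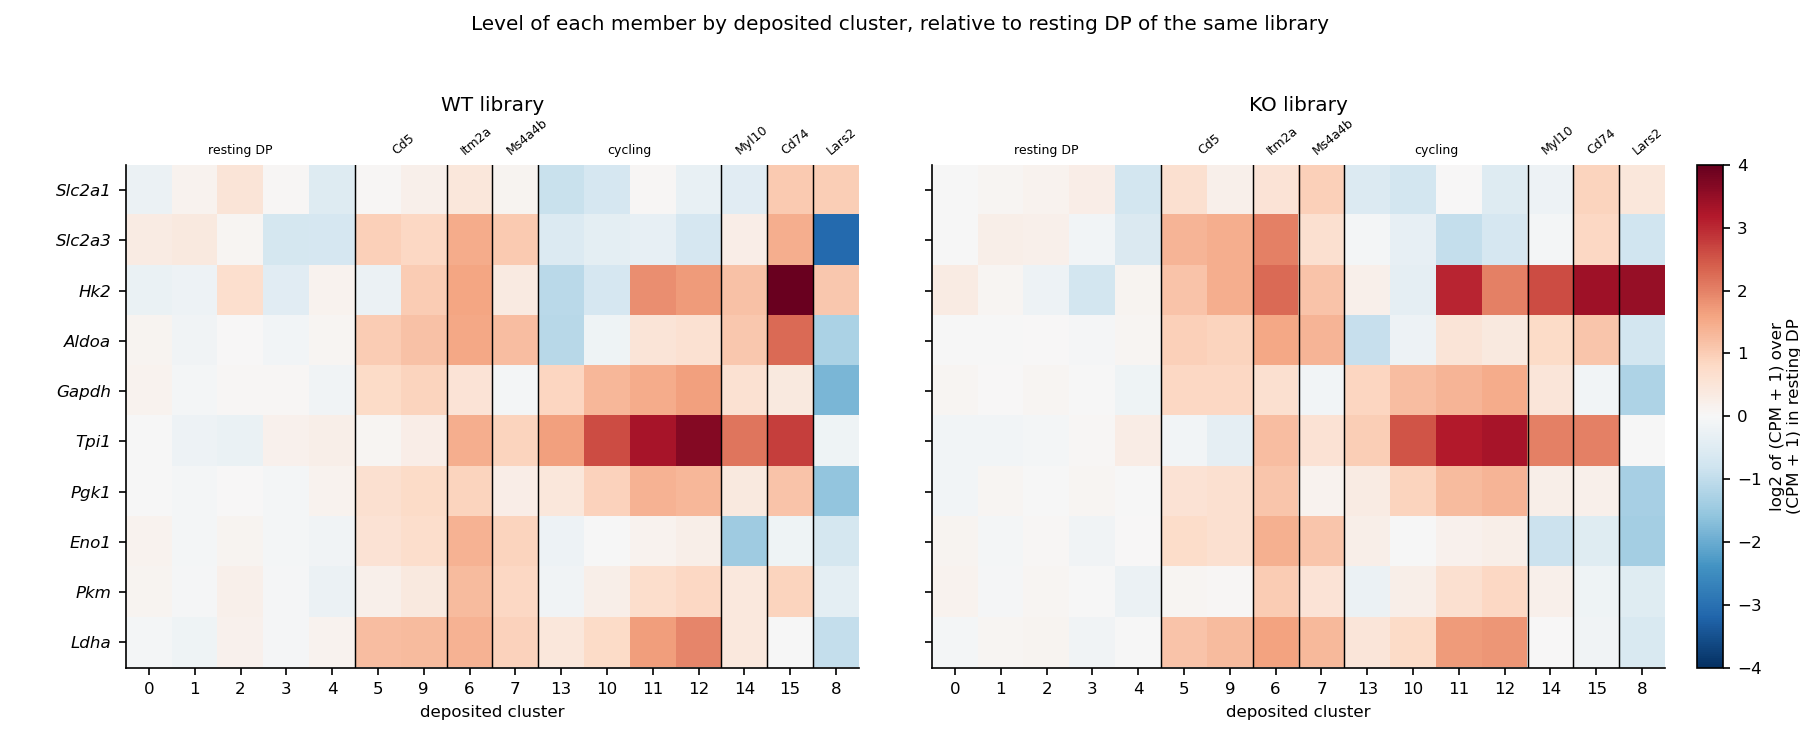
Rows are the 10 genes, columns the 16 deposited clusters with at least 200000 UMIs, and the colour is the log2 ratio of (CPM + 1) to (CPM + 1) in resting DP of the same library, from blue (lower) to red (higher). Tpi1 was deepest red in clusters 11 and 12 and Eno1, Pkm and Slc2a3 in cluster 6, Aldoa was so in cluster 15 (450 CPM) of WT and in cluster 6 of KO, and cluster 8 was blue for most genes; the Hk2 row rests on few UMIs, such as 7 and 8 in cluster 15.

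The groups were next compared as wholes, each with resting DP of the same library, to ask at which stage the genes stood higher together. The clusters were made from the expression of the same cells, so these ratios are descriptions and carry no test. A log2 ratio of 1 or more counted as past the fold, among genes with at least 20 UMIs over both sums. In signalled DP, 3 of 9 measured members were past it in WT (Slc2a3, Aldoa and Ldha) and 3 of 10 in KO (Slc2a3, Hk2 and Ldha), and none was that much lower. Of all genes measured, 5.99% in WT and 5.64% in KO were that much higher, and 9.12% and 8.54% that much lower. The median over the members was 0.69 in WT and 0.77 in KO, beside medians over all genes of -0.05 and -0.06. The members' median thus stood above that of all genes already in cells that still carried DP markers, but not every member did. Tpi1 had log2 ratios of 0.17 (-0.36 to 0.64) and -0.19 (-0.60 to 0.19), with intervals that held the median of all genes in both libraries.

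The Itm2a cluster had most members past the fold. In WT these were 7 of 10 (Slc2a3, Hk2, Aldoa, Tpi1, Eno1, Pkm and Ldha) and in KO 8 of 10 (the same and Pgk1), against 11.4% and 10.4% of all genes. None of the members was that much lower, against 16.6% and 13.8% of all genes. The median over the members was 1.39 in WT and 1.35 in KO, beside -0.20 and -0.07 over all genes. In the Ms4a4b cluster, 2 of 9 in WT (Slc2a3 and Aldoa) and 4 of 9 in KO (Slc2a1, Aldoa, Eno1 and Ldha) were past the fold, against 10.5% and 11.1% of all genes, and none was that much lower, against 22.4% and 16.5%. The medians were 0.88 and 0.74, beside -0.40 and -0.19 over all genes. With TMM factors the WT count was 6 of 9. Of the 2 SP clusters, the one led by Ms4a4b, a marker of later maturation, thus had the lower median in both libraries.

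Over the cycling clusters the same 5 of 10 members were past the fold in both libraries, namely Hk2, Gapdh, Tpi1, Pgk1 and Ldha, against 13.2% of all genes in each. None was that much lower, against 25.3% and 26.2% of all genes. The median over the members was 0.85 in both libraries, beside -0.37 and -0.40 over all genes, and the members were split, with Slc2a1, Slc2a3, Aldoa and Eno1 between -0.66 and 0.25. With a split this wide the median depended on other choices. It was 0.35 in WT and 0.68 in KO with cells weighted equally, 0.17 and 0.47 without the 5% of cells with most UMIs, 0.60 and 0.39 with each cell thinned to 1000 UMIs, 0.54 and 0.55 without Gapdh, and 1.13 and 1.15 with TMM factors. In the Myl10 cluster, 2 of 9 in WT (Aldoa and Tpi1) and 1 of 9 in KO (Tpi1) were past the fold, against 14.6% and 13.5% of all genes, and Eno1 in WT was that much lower, against 18.5% and 16.2%. The medians were 0.44 and 0.19. They were below those of the cycling clusters here, but in WT not with cells weighted equally (0.41 against 0.35) or without the 5% of cells with most UMIs (0.56 against 0.17), and neither library had that order with thinned cells (0.62 against 0.60 in WT and 0.48 against 0.39 in KO).

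Ldhb was highest in resting DP, where Ldha was lowest of these 5 groups. Ldhb had 972 and 885 CPM in resting DP, 818 and 756 CPM in signalled DP, 261 and 308 CPM in the Itm2a cluster, 91.5 and 137 CPM in the Ms4a4b cluster and 328 and 280 CPM in the cycling clusters. Its log2 ratio over resting DP was -1.89 (-2.00 to -1.79) and -1.52 (-1.65 to -1.40) in the Itm2a cluster, and -3.41 (-3.61 to -3.21) and -2.69 (-2.86 to -2.53) in the Ms4a4b cluster. Ldha therefore made up 15.4% (14.7 to 16.0) of the UMIs of both genes in resting DP of the WT library and 17.5% (17 to 18.1) in the KO library. It made up 34.0% and 36.2% in signalled DP, 64.0% and 65.3% in the Itm2a cluster, 78.6% (75.9 to 81.1) and 77.2% (74.9 to 79.4) in the Ms4a4b cluster, and 59.6% and 64.5% in the cycling clusters. The order of these groups was the same in both libraries, with more Ldhb than Ldha in resting and signalled DP and more Ldha in the SP clusters and in the cycling clusters as a whole.

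The share also varied widely among the 4 cycling clusters. It was 24.7% and 29.6% in cluster 13, 46.6% and 50.1% in cluster 10, 67.3% and 73.0% in cluster 11 and 75.5% and 76.1% in cluster 12, and these clusters had Rag1 levels of 1438 and 1337, 461 and 458, 394 and 333, and 139 and 139 CPM in the same order. Among these 4 clusters the share was thus lower where the Rag1 level was higher, and the resting DP clusters, with the highest Rag1 levels, all lay between 13.9% and 18.5%. The signalled DP clusters stood apart from this order, with shares of 33.4% to 37.3% at Rag1 levels of 155 to 304 CPM. The 2 SP clusters did not follow it either. Cluster 7 had more Rag1 than cluster 6 (88.9 and 184 against 74.7 and 107 CPM) and also a higher share. In the Myl10 cluster the share was 47.9% and 42.7%, at Rag1 levels of 656 and 605 CPM.

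**Figure D3:**
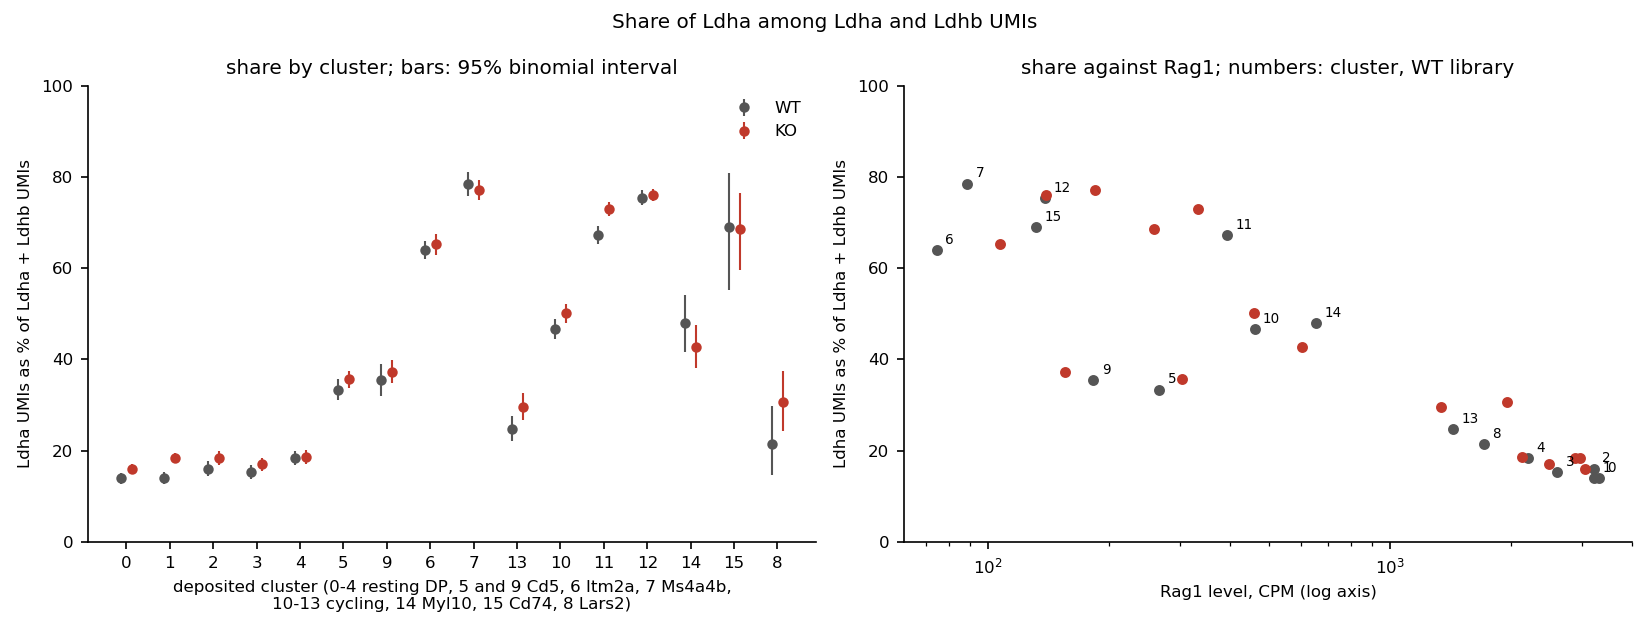
The left panel plots Ldha UMIs as a percent of Ldha and Ldhb UMIs for each of 16 deposited clusters in the WT (grey) and KO (red) library with exact 95% binomial intervals, and the right panel plots the same share against the Rag1 level in CPM on a log axis. Shares lay between 13.9% and 18.5% in clusters 0 to 4 and reached 78.6% in cluster 7, and cluster 13, the cycling cluster with the highest Rag1 level, lay at 24.7% and 29.6%.

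The balance within other enzyme families had other patterns. Among the phosphofructokinase genes Pfkl, Pfkm and Pfkp, whose product catalyses the main committed step, Pfkp held 65.1% (61.9 to 68.3) and 62.0% (59.1 to 64.8) of UMIs in resting DP and 82.1% (76.5 to 86.7) and 82.0% (78.3 to 85.3) in signalled DP. In the Myl10 cluster it held 2 of 39 UMIs in WT and 8 of 43 in KO, or 5.13% (0.627 to 17.3) and 18.6% (8.39 to 33.4). Aldoa held at least 95.4% of the UMIs of Aldoa and Aldoc in each group. Eno1 held 94.3% and 93.9% of enolase UMIs (Eno1, Eno1b and Eno3) in resting DP and 84.1% and 87.5% in the Itm2a cluster, with the limit that Eno1 and Eno1b share 3′ sequence.

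The pathway around the members was followed through lists of genes, each described by its count, its median and its most extreme genes with at least 100 UMIs. Of the 22 other glycolysis genes in the matrix, 15 were measured in the Itm2a cluster, where 4 were past the fold higher and 2 lower in WT, and 3 higher and 1 lower in KO, with medians of 0.40 and 0.54. The shares of all genes were 11.4% and 10.4% higher and 16.6% and 13.8% lower. Pgam1, phosphoglycerate mutase, which acts between Pgk1 and Eno1, went with the members, at log2 ratios over resting DP of 0.95 and 0.75 in signalled DP, 1.57 and 1.43 in the Itm2a cluster and 1.75 and 1.5 in the cycling clusters. Pfkp stood at 0.94 and 1.28 in signalled DP and at -3.48 and -2.46 in the Myl10 cluster. Eno3, the muscle enolase, stood at 4.84 and 3.98 in the Itm2a cluster, from 13 and 21 UMIs in resting DP, and was lower there in KO than in WT by a log2 ratio of -0.69 (-1.26 to -0.17). Bpgm, which diverts the intermediate between Gapdh and Pgk1 to 2,3-bisphosphoglycerate, was lower in the Itm2a cluster (-0.87 and -0.43), as it was in the Ms4a4b cluster (-0.81 and -0.23).

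Of 5 lactate export genes in the matrix, 3 were measured in each of the 5 groups. Slc16a1 (MCT1), the lactate transporter, had log2 ratios over resting DP of -1.13 and -0.98 in signalled DP, -1.95 and -1.30 in the Itm2a cluster and -2.41 and -2.14 in the Ms4a4b cluster. It was lower in the same SP clusters in which Ldha was higher. In the cycling clusters it stood at 0.24 and 0.11. Bsg (basigin), its chaperone, stayed between -0.40 and 0.62 in these groups, and Emb (embigin), a related chaperone, was at -1.10 and -1.22 in the cycling clusters.

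Regulators of glycolytic flux stood low in cycling cells. Of those measured, 8 of 12 in WT and 7 of 14 in KO were past the fold lower there, against 25.3% and 26.2% of all genes, with medians of -1.78 and -1.12, while 0 and 1 were past it higher. Txnip, which restrains glucose uptake, was at -2.55 and -2.46, Pdk1, which holds pyruvate dehydrogenase inactive, at -2.59 and -2.78, and Ppp1r3b, a glycogen-targeting phosphatase subunit, at -2.70 and -2.78. Pdk3, another kinase of the same complex, stood the other way, at 0.90 and 1.04. In the Itm2a cluster 5 of 12 in WT and 4 of 13 in KO were past the fold lower, against 16.6% and 13.8% of all genes, and 1 and 0 were past it higher, with Ppp1r3b at -1.82 and -1.29.

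HIF-induced genes outside glycolysis stood on both sides of resting DP. Of those measured in the cycling clusters, 3 of 14 were past the fold higher and 6 lower in WT, and 5 of 16 higher and 7 lower in KO, against 13.2% of all genes higher in each and 25.3% and 26.2% lower. Fam162a stood high in the Itm2a (1.69 and 1.47) and cycling clusters (1.32 and 1.34), while Ddit4, an inhibitor of mTORC1 (-1.77 and -1.91), and Bnip3l, a mitophagy receptor (-1.43 and -1.60), were lower in the cycling clusters. Egln3, a HIF prolyl hydroxylase, was higher in signalled DP (1.93 and 1.52) and lower in the Ms4a4b cluster (-2.74 and -1.18). Mxi1, a MAX partner that opposes MYC, was lower in the Ms4a4b cluster (-2.45 and -2.14).

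Among the regulators themselves, Myc was at log2 ratios of 3.33 and 3.03 in the Itm2a cluster, 2.78 and 2.81 for the Ms4a4b cluster, 2.96 and 3.41 in the cycling clusters and 4.85 and 5.13 in the Myl10 cluster over resting DP, where it had 5.80 and 5.27 CPM. The group with the highest Myc level was the Myl10 cluster, with 168 and 186 CPM. Mxd4, a MAX partner that opposes MYC, was lower in the cycling clusters (-2.15 and -2.41) as well as in the Itm2a cluster (-1.26 and -1.30). Mxd3, of the same family and known to be expressed in dividing cells, stood at 7.29 and 7.32 in the cycling clusters. Hif1a was at -0.52 in the cycling clusters of both libraries.

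**Figure D4:**
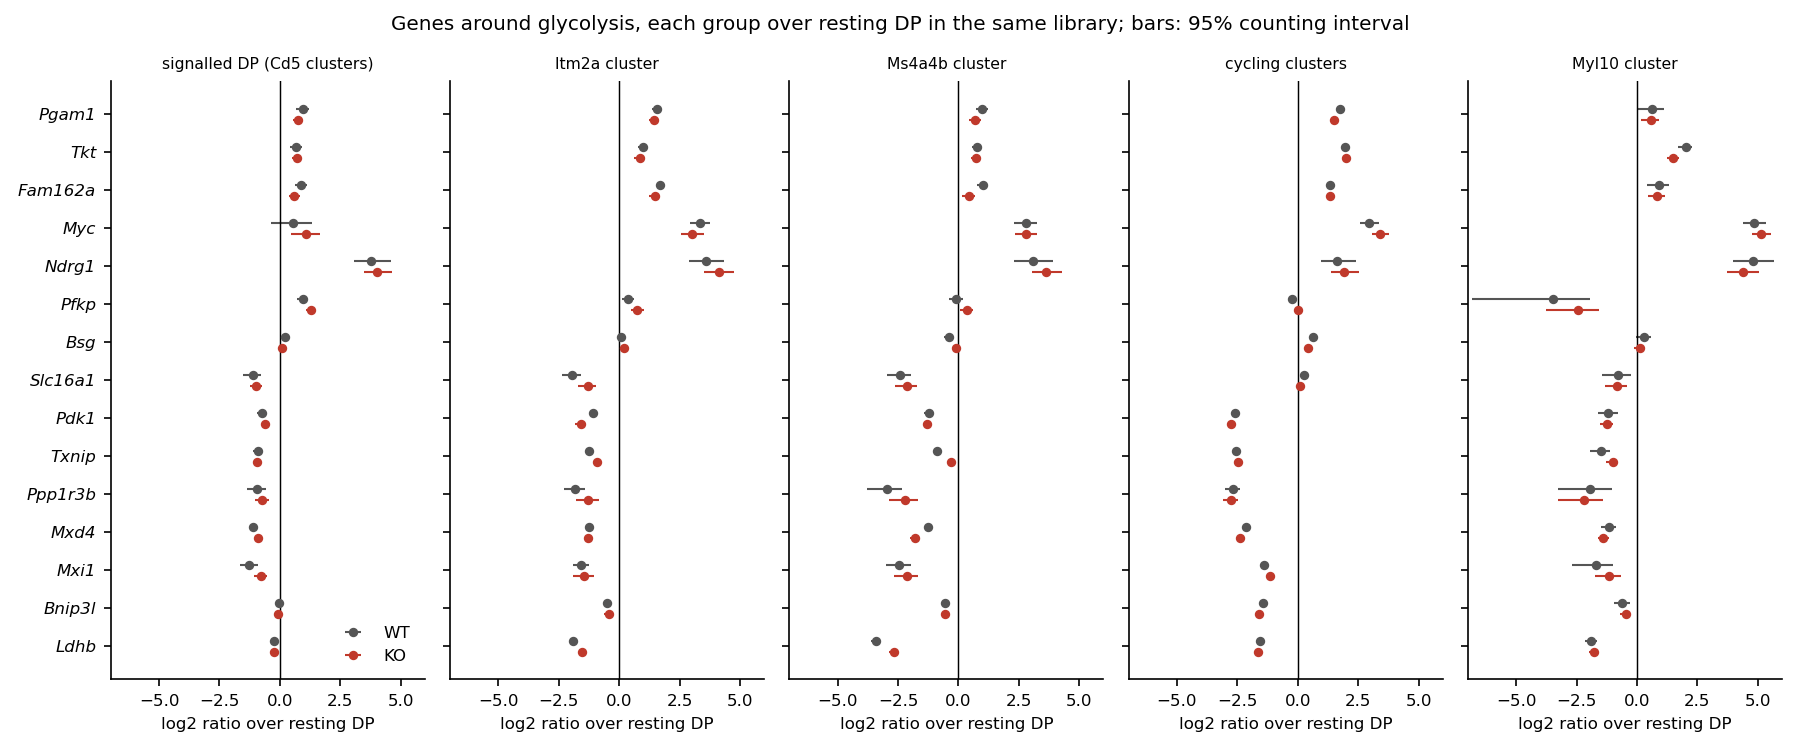
Each panel plots, for 1 group of clusters, the log2 ratio over resting DP of the same library for 15 genes around glycolysis in the WT (grey) and KO (red) library, with exact 95% counting intervals. Pgam1, Tkt and Fam162a lay right of 0 and Ldhb, Mxd4 and Txnip left of 0 in all 5 panels, and Slc16a1 was left of 0 except in the cycling clusters (0.24 and 0.11).

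The members were not equally alike over the 19 clusters of both libraries (38 points, which share libraries and, in small clusters, few UMIs). Pearson's correlation of log2(CPM + 1) was 0.81 for Gapdh with Pgk1, 0.80 for Gapdh with Ldha and 0.82 for Pgk1 with Ldha, and 0.72 for the 2 transporters with each other. Slc2a1 had a correlation of -0.44 with Gapdh, and Eno1 had 0.17 with Tpi1. With Myc, the members' correlations ran from 0.02 for Slc2a3 to 0.53 for Ldha. The genes outside the members whose pattern was most like their mean, among 8822 genes, were Guk1 (0.84), Pgam1 (0.84), Mrpl52 (0.82), Rexo2 (0.81) and Drap1 (0.79). The single most alike gene was Nme1 for Ldha (0.92), Psmb2 for Gapdh (0.94), Syce2 for Tpi1 (0.94), Rwdd1 for Pgk1 (0.91), Pfn1 for Eno1 (0.77), Aprt for Aldoa (0.79), Fam162a for Pkm (0.83), Zeb2 for Hk2 (0.79), Malt1 for Slc2a1 (0.91) and Gm31597 for Slc2a3 (0.84).

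The comparison of the libraries asked whether these genes differed between WT and KO within the same group of clusters. Their medians did not stand apart from all genes in resting DP (0.01, beside 0.05 over all genes), signalled DP (0.02 beside 0.04), the Itm2a cluster (0.14 beside 0.16) or the cycling clusters (-0.02 beside 0.04). A log2 ratio of 0.5 or more in either direction counted as past the fold. In resting DP 0 of 10 members were past it higher and 1 lower (Hk2, -0.75, interval -2.13 to 0.57), against 7.44% and 3.08% of all genes. In signalled DP 0 of 9 were past it in either direction, against 9.38% and 4.88%. In the Itm2a cluster 1 of 10 was higher (Slc2a3, 0.53, 0.01 to 1.04) and 0 lower, against 15.8% and 6.68%. For the cycling clusters 1 of 10 was higher (Hk2, 0.60, 0.02 to 1.22) and 0 lower, against 7.32% and 3.70%. These shares were near the background of all genes.

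In the Ms4a4b cluster the median over the members was -0.02 while the median over all genes was 0.24, and 2 of 9 members lay above the latter. Here 1 of 9 was past the fold higher (Slc2a1, 0.92, 0.13 to 1.77, from 21 and 39 UMIs) and 0 lower, against 27.0% and 7.03% of all genes. The shift of all genes depended on the library total, for it was 0.00163 with TMM factors, which put the members' median at -0.25. With each cell thinned to 1000 UMIs the members' median was 0.64, over 7 measured members of which 4 were past the fold higher. Markers of macrophages summed to 6.01 CPM in the WT and 37.1 CPM in the KO library in this cluster, with 3 of 7 genes detected in WT (C1qa, C1qc, Adgre1 and Mertk at 0) and 6 of 7 in KO (Adgre1 at 0). In resting DP the same sum was 47.5 and 43.2 CPM, so the KO value was not unusual. Markers of DN or gamma-delta T cells summed to 297 CPM in WT and 449 CPM in KO in the Ms4a4b cluster. Its cells had a median of 6738 and 5032 UMIs. The part of these differences in the result was not tested.

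**Figure D5:**
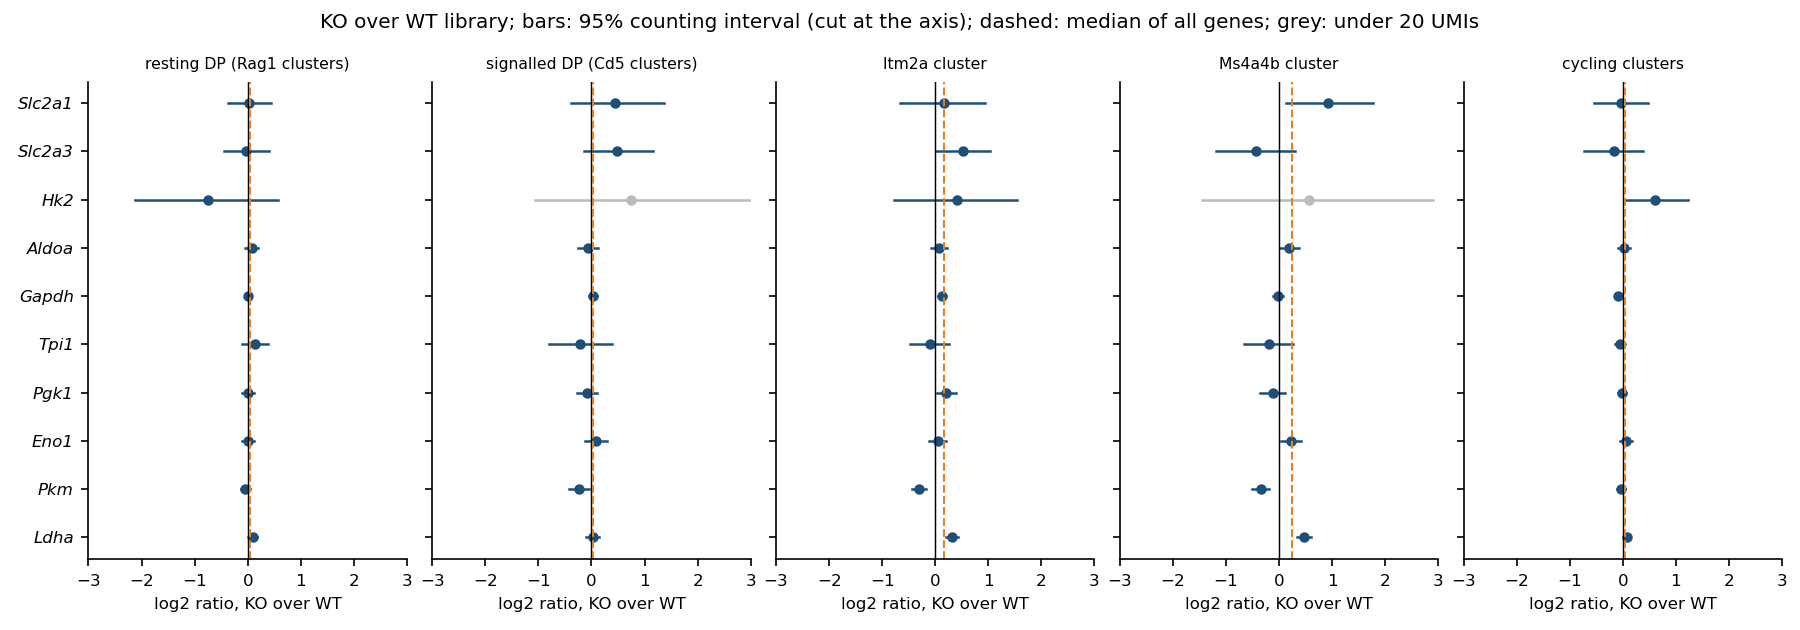
Each panel plots, for 1 group of clusters, the log2 ratio of the KO over the WT library for the 10 genes with exact 95% counting intervals, the dashed line being the median of all genes, and grey points having under 20 UMIs. Most points lay within 0.3 of 0, and Pkm lay left and Ldha right of 0 in the Itm2a and Ms4a4b clusters.

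Ldha and Pkm, the last enzymes of the pathway, differed between the libraries in opposite directions in the SP clusters. Ldha had 466 CPM in WT and 579 CPM in KO in the Itm2a cluster, a log2 ratio of 0.31 (0.20 to 0.43), and 335 and 465 CPM in the Ms4a4b cluster, a log2 ratio of 0.47 (0.34 to 0.61). The medians over all genes were 0.16 and 0.24 in these 2 clusters. In resting DP (0.10), signalled DP (0.02) and the cycling clusters (0.07) the ratio of Ldha was near 0. Over the alternatives the ratio in the Ms4a4b cluster ran from 0.23 to 0.65, so that its direction held while its size depended on the scaling. Pkm had 434 and 352 CPM in the Itm2a cluster, a log2 ratio of -0.30 (-0.44 to -0.16), and 322 and 253 CPM in the Ms4a4b cluster, a log2 ratio of -0.34 (-0.50 to -0.19). In signalled DP it was -0.23 (-0.41 to -0.05), and in resting DP and the cycling clusters -0.04 in each. With cells thinned to 1000 UMIs the ratio of Pkm was -0.02 for the Itm2a cluster and -0.06 in the Ms4a4b one, and as the mean over cells it was -0.32 and -0.29. The single clusters share the 2 libraries and are not replicates. Over them, Pkm was higher in KO in 1 of 19, with an interval below 0 in 5. Among these 5 were cluster 15, which held different cells in the 2 libraries, and cluster 18, with 24 and 8 cells. Ldha was higher in KO in 13 of 19, with an interval above 0 in 4 and below 0 in 2.

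The other members gave smaller or less certain differences. Eno1 was higher in KO in the Ms4a4b cluster by a log2 ratio of 0.23 (0.04 to 0.42) and Aldoa by 0.20 (0.02 to 0.37), and with TMM factors these were -0.01 and -0.04. Pgk1 was higher in the Itm2a cluster by 0.21 (0.04 to 0.38). The medians over all genes were 0.24 in the Ms4a4b cluster, 0.16 in the Itm2a cluster and 0.04 in the cycling clusters. Gapdh was higher in the Itm2a cluster by 0.13 (0.05 to 0.20), turning to -0.04 with TMM factors, and lower in the cycling clusters by a log2 ratio of -0.09 (-0.11 to -0.06). Markers of erythroid cells summed to 176 CPM in the WT and 0.236 CPM in the KO library in the cycling clusters, with 4 of 5 genes detected in WT (Alas2 at 0) and 3 of 5 in KO (Hba-a1 and Hba-a2 at 0), and their part in the result was not tested. Slc2a3 in the Itm2a cluster had 71 and 63 UMIs, and its ratio ran from 0.36 to 0.54 over the alternatives. Hk2 in the cycling clusters had 37 and 72 UMIs, of which cluster 11 held 19 and 45, and its ratio ran from 0.56 to 1.15. In cluster 11 Hk2 thus made up 18.1% (11.3 to 26.8) of hexokinase 1 and 2 UMIs in WT and 36.9% (28.3 to 46.1) in KO, while in cluster 12 it made up 20.2% and 20%. Il2ra, a DN marker, had 32.2 and 77.6 CPM in cluster 11, and 17.7 and 34.7 CPM in cluster 12. The part of this difference in the Hk2 result was not tested.

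Ldhb differed between the libraries as well. It was lower in KO in resting DP by a log2 ratio of -0.14 (-0.17 to -0.10), in signalled DP by -0.11 (-0.20 to -0.02) and in the cycling clusters by -0.23 (-0.29 to -0.16), and higher by 0.24 (0.08 to 0.39) in the Itm2a cluster and by 0.58 (0.33 to 0.84) in the Ms4a4b cluster. The share of Ldha was accordingly higher in KO in resting DP (15.4% and 17.5%) and in the cycling clusters (59.6% and 64.5%). The WT and KO intervals of this share did not overlap there, but they did for the SP clusters. Rag1, highest in resting DP, was also higher in KO in these SP clusters. It had 74.7 CPM in WT and 107 CPM in KO for the Itm2a cluster, and 88.9 and 184 CPM for the Ms4a4b one. Summed DP markers stood at 1217 and 1301 CPM in the former, and at 1208 and 1452 CPM in the latter. The medians over all genes, KO over WT, were 0.16 and 0.24. The part of these differences in the Ldhb result was not tested. Among the genes around the pathway, Pdk1 was higher in KO in resting DP by 0.31 (0.24 to 0.38) and in signalled DP by 0.43 (0.22 to 0.66), and Txnip in the Ms4a4b cluster by 0.53 (0.33 to 0.73). Fam162a in the Ms4a4b cluster was lower by a log2 ratio of -0.55 (-0.87 to -0.24) and Mxd1 by -1.66 (-2.34 to -1.05). Myc was lower in KO in the Itm2a cluster (-0.44, -0.84 to -0.06) and higher in the cycling clusters (0.32, 0.14 to 0.49). Cells differ in number and RNA content between the libraries, and with 1 pool of mice each a difference of genotype cannot be told apart from one between pools or libraries.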

How the data were processed

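Single cells of whole thymus were measured in 2 pooled libraries, WT and KO, of 5 mice each. Per the labels, the paper's methods and the submitters' processing notes, the authors aligned 3′ reads to mm10 with Cell Ranger 3.0.2 (STAR), kept cells with 200 to 6000 genes and at most 50000 reads in Seurat, and deposited raw UMI counts per gene and cell with a cell table of clusters and cell totals. The version of the annotation is not given in the sources used here. Cell names in the files carry Cdc45 in place of Cdc42 and were matched to the libraries by WT or KO, and the deposited mitochondrial percent was 0 in every cell, so it was computed again from the counts.

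The members and the gene lists were chosen with earlier results of these data known. Within each library the counts of a group of clusters (resolution 1.5) were summed and divided by their total (CPM), and 0.5 was added to each of a pair of sums before their log2 ratio was taken. The intervals given are exact (Poisson, conditional binomial or Clopper-Pearson, 95%) and cover counting error only, and no test was made between libraries. Medians use genes with at least 20 UMIs over both sums. All members were named, with genes of the pathway lists of at least 100 UMIs among the 3 highest or 3 lowest of their list or paralogous to a member, and genes most like the members among those with at least 500 UMIs. Python 3.11.15 with numpy 2.4.6, scipy 1.17.1 and pandas 2.3.3, and R 4.3.3 with edgeR 4.0.16 and DESeq2 1.42.0 for scaling factors alone, were used. The computation was tested on simulated data.

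Alternatives, 14 in number, changed the library total (ribosomal and mitochondrial genes or the members taken out, TMM factors, DESeq2 size factors), the weight of cells (mean over cells, thinning to 1000 UMIs), the cells kept (without those above 10% mitochondrial UMIs, without likely doublets, without the top 5% by UMIs), the clusters (resolutions 1.8 and 2, giving 22 and 23), the added constant (1) and the UMI minimum (1 or 100). Leaving out Gapdh was added after seeing the data. Scrublet's own threshold called 2 WT and 1679 KO cells as doublets, so the 6% with the highest scores in each library (366 and 454 cells) were left out in its place, and in that alternative alone. The files give 19 clusters over 13683 cells. Gene positions are those of GENCODE vM21 on GRCm38, and promoters those of RefSeq.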

Additional observations from a re-analysis of the deposited data

Results flagged for a closer look

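Gapdh differed between the libraries in opposite directions in 2 groups of clusters, each by more than its counting interval. The log2 ratio of KO over WT was 0.126 in the Itm2a cluster and -0.0866 in the cycling clusters, from 1093 and 1193 CPM in the first and 2044 and 1925 CPM in the second. The medians over all genes were 0.156 and 0.0358, so that Gapdh lay below that of all genes in both. In the Itm2a cluster its interval (0.048 to 0.204) held the median of all genes. With 1 library per condition the difference between the groups was not tested. With TMM factors the ratio in the Itm2a cluster was -0.04. Most of the 3′ end of Gapdh is shared with other annotated genes, and erythroid markers stood at 176 CPM in the WT and 0.236 CPM in the KO library in the cycling clusters, and the part of both in the result was not tested.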

How the results depend on the processing

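No paired analysis was possible because each condition has 1 library. All 14 alternatives and the one added after seeing the data were run. Of the medians over the members, 202 values stayed within the main value's own interval and 23 left it, and of the values of single members 1528 stayed, 163 moved and 9 took the other sign from a value whose own interval left out 0. Counting also values whose interval held 0, 67 values of 33 single-member results had the other sign under some alternative, and so did 11 values of 5 medians. The medians of the members in signalled DP over resting DP ran from 0.62 to 0.78 in WT and from 0.71 to 0.79 in KO over the alternatives, and those of the Itm2a cluster from 1.10 to 1.54 and from 1.09 to 1.43. The 23 are as follows. In the Ms4a4b cluster, KO over WT was -0.19 without ribosomal protein and mitochondrial genes, -0.25 with TMM factors, -0.21 with DESeq2 size factors and 0.64 with thinned cells, beside -0.02. For the Itm2a cluster over resting DP it was 1.54 in WT without ribosomal protein and mitochondrial genes, and 1.10 in WT and 1.09 in KO with thinned cells. For the Ms4a4b cluster in WT it was 1.17 without those genes, 1.14 with TMM and 1.18 with DESeq2 factors. For the cycling clusters in WT it was 1.13 with TMM factors, 0.35 as the mean over cells, 0.60 thinned, 0.17 without the 5% of cells with most UMIs, 0.54 at a minimum of 100 UMIs and 0.54 without Gapdh. In KO it was 1.15 with TMM factors, 0.71 with DESeq2 factors, 0.68 as the mean over cells, 0.39 thinned, 0.47 without the 5% of cells, and 0.55 at 100 UMIs and without Gapdh. The 9 values that took the other sign from one whose interval left out 0 were, with TMM factors, KO over WT of Gapdh in the Itm2a cluster (-0.042) and of Aldoa (-0.039) and Eno1 (-0.00951) in the Ms4a4b cluster, Gapdh in the Ms4a4b cluster over resting DP in KO (0.023 without ribosomal protein and mitochondrial genes and 0.018 with DESeq2 factors), and Aldoa in the cycling clusters over resting DP (-0.0704 in WT and -0.11 in KO as the mean over cells, -0.49 and -0.60 without the 5% of cells). Leaving out Gapdh or genes under 100 UMIs changes which members enter the median, and for the others the cause was not tested. At 10 to 40 UMIs, as for Hk2 and the transporters, the depth limits what could be seen.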

Other observations

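The pentose phosphate pathway, which branches from glycolysis to make NADPH and ribose, had genes on both sides of resting DP in the cycling clusters. There 2 of 8 genes were at least 2-fold higher in both libraries, against 13.2% of all genes, and 1 was that much lower, against 25.3% in WT and 26.2% in KO, with medians of 0.18 and 0.29. Tkt (transketolase) was at log2 ratios of 1.94 and 1.99 in WT and KO and Pgls (6-phosphogluconolactonase) at 1.07 and 1.18, while G6pdx, whose product opens the pathway, was at 0.21 and 0.47. H6pd, its counterpart of the endoplasmic reticulum, was the gene that was lower, at -1.20 and -1.22. In the Myl10 cluster Tkt was at 2.01 and 1.51 and G6pdx at -1.39 and -0.49.

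Genes of pyruvate entry into mitochondria stayed near resting DP. None of 8 was at least 2-fold higher or lower in the cycling clusters, against the same shares of all genes, with medians of -0.05 and -0.03 in WT and KO beside -0.37 and -0.40 over all genes. Cs (citrate synthase) was at 0.23 and 0.42 and Pdha1, a subunit of pyruvate dehydrogenase, at -0.71 and -0.45. In the Ms4a4b cluster the medians were -0.57 and -0.54, with Pdhx, the E3-binding subunit, at -1.16 and -0.98.

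Clusters outside the main T lineage groups gave values on few cells. Aldoa had 450 CPM (366 to 548) in the Cd74 cluster of the WT library, its highest level among the 16 clusters ranked, and 213 CPM in that of the KO library, but B cell markers summed to 4874 and 40904 CPM there, so the cluster held different cells in the 2 libraries and no ratio is given. In the small cluster 18, with 24 and 8 cells, Ms4a4b at 1409 CPM and Mki67 at 980 CPM over both libraries, Ldha made up 87.8% (83.6 to 91.3) and 93.4% (84.1 to 98.2) of Ldha and Ldhb UMIs.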
